A study of Mus musculus with 9 samples.

Results

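The genes described here encode the receptors, bridging proteins, and scavenger receptors with which phagocytes take up dying cells and modified lipoproteins. They are 10 genes chosen by symbol, *Mertk*, *Axl*, *Gas6*, *Pros1*, *Mfge8*, *Msr1*, *Marco*, *Cd36*, *Scarb1*, and *Stab1*, out of 50559 genes counted, and the rule that chose them uses no measured value. They were followed in CD45+CD11b+ myeloid cells sorted from the quadriceps of *mdx* mice, a strain that lacks dystrophin and models Duchenne muscular dystrophy, so that every group carries the same mutation and no healthy muscle was analysed here. Mice were given drinking water with vehicle, with spironolactone, an antagonist of the mineralocorticoid receptor, or with prednisolone, an agonist of the glucocorticoid receptor, for 7 days up to 4.5 weeks of age. Each group has 3 RNA-Seq libraries, and each library pools sorted cells from 3 pairs of quadriceps. Both sexes were used in each group, with fewer males in prednisolone than in the other groups, and sex was not part of the fit. Dead cells were not gated out at the sort.

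In efferocytosis, a phagocyte recognizes phosphatidylserine on a dying cell and engulfs it. The TAM receptor kinases bind phosphatidylserine only through the bridging proteins GAS6 and protein S, and MFG-E8 does the same for the αv integrins. Scavenger receptors bind oxidized lipoproteins, polyanions, and apoptotic cells directly. In injured muscle these functions belong to macrophages that clear necrotic fibers, and the uptake of dead cells is known to shift such macrophages toward a restorative state.

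The libraries held 31469815 to 32943512 counts on genes. The levels of *Ptprc* and *Itgam*, which encode the CD45 and CD11b of the sort, were high in each group (573.7 to 614.9 and 1044 to 1407 CPM on average, which are counts scaled to a library total of 1e+06), as was *Csf1r*, which encodes the macrophage growth factor receptor (1591 to 1632 CPM). Vehicle replicate 1 stood apart from the other 2 vehicle libraries. Its monocyte markers summed to 1096 CPM, against 2567 and 2379 CPM in vehicle replicates 2 and 3, and its level was the highest of the 3 for *Mertk*, *Gas6*, *Mfge8*, *Cd36*, and *Stab1* and the lowest for *Msr1*. Where leaving it out changed a call or the direction of a log2 difference of the genes chosen by symbol, both values are given. The other engulfment and scavenger genes named below were examined without it only in the comparisons for which they were named. Marker genes and the counts of calls in the marker and pathway lists are given with all libraries only. Whether they hold without vehicle replicate 1 was not examined. In a pool of sorted cells, fewer cells of a type and less RNA per cell cannot be told apart.

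The genes ranged from among the most abundant transcripts of these cells to near absence. Per unit of exon length, the highest in vehicle were *Stab1*, a scavenger receptor of perivascular and tissue macrophages, at 479 ± 216 TPM (counts divided by exon length and scaled to 1e+06 in a library; SD, *n* = 3), and *Cd36*, a receptor for oxidized lipids and long-chain fatty acids, at 459 ± 99.0 TPM. Their ranges over libraries overlapped (351 to 728 and 364 to 561 TPM). *Msr1*, the class A scavenger receptor, followed at 290 ± 49.4 TPM, with each library below each library of those genes. *Mertk* (173 ± 65.4 TPM), *Mfge8* (147 ± 44.7 TPM), and *Axl* (123 ± 20.7 TPM) overlapped each other, and the highest *Mertk* library also overlapped *Msr1*. *Gas6* (73.7 ± 24.4 TPM) overlapped *Axl* above it and *Scarb1* (60.2 ± 6.90 TPM) below it. *Pros1* (29.5 ± 2.70 TPM) lay below *Scarb1* in each library. *Marco*, a scavenger receptor of splenic marginal zone and lung macrophages, was close to absent at 0.609 ± 0.316 TPM. Among 15408 tested genes with a known length, *Stab1* lay at percentile 98.0, *Gas6* at 86.3, *Pros1* at 70.8, and *Marco* at 9.41. The order depends on exon length, since by CPM *Cd36* stood above *Stab1*, *Axl* above *Mertk*, and *Scarb1* above *Gas6*. The length was the union of the exons of all annotated transcripts of a gene. A union longer than the expressed transcript lowers the TPM.

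**Figure D1:**
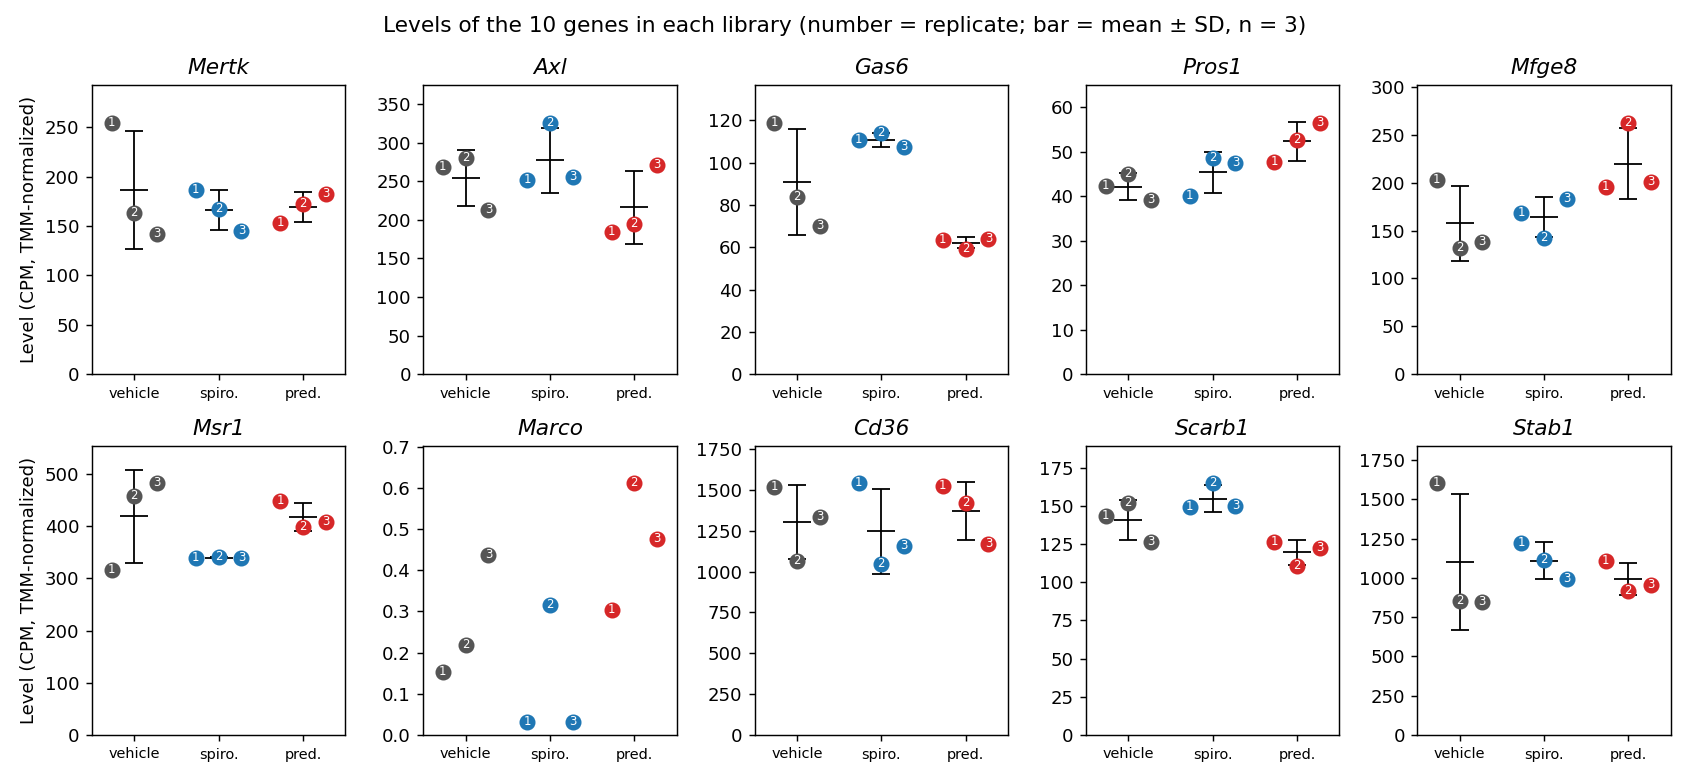
Level of each gene in CPM after TMM normalization in the 9 libraries, with 1 dot per library (the number in it is the replicate) and, except for *Marco*, a bar for the mean ± SD of 3 libraries. The *Gas6* dots of prednisolone lie between 59.1 and 63.8 CPM, below all vehicle and spironolactone dots, while *Msr1* in spironolactone spans only 339.1 to 341.3 CPM and vehicle replicate 1 stands apart for *Mertk* and *Stab1*.

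In the edgeR fit the calls among these genes were between the drugs, the comparison that also gave the most calls over all genes. *Gas6* was 1.78-fold higher in spironolactone than in prednisolone libraries, and *Scarb1* was 1.29-fold higher. These were the 2 of 10 genes past an adjusted *P* of 0.05 in this comparison (edgeR quasi-likelihood test, Benjamini-Hochberg), in which 5.17% of all 16618 genes tested passed, 2.38% higher and 2.79% lower. At an unadjusted *P* under 0.05 there were 6 of the 10, against 22.5% of all genes. In 4 of the 10 genes the spironolactone and prednisolone libraries did not overlap, 2 higher and 2 lower, against 30.3% of all genes. The median log2 difference of the 10 genes was -0.08, and that of all genes was 0.03.

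Neither drug gave a call against vehicle in the edgeR fit. With prednisolone 0 of the 10 genes passed, where 1.76% of all genes did (1% higher and 0.758% lower), 4 had an unadjusted *P* under 0.05 (14.2% of all genes), and 3 had no overlap with vehicle (19.7% of all genes). DESeq2 called 1 of the 10, *Gas6*, where it called 684 of 14739 genes, and limma-voom called 0, where it called 262 of 16618. The genes without overlap were *Gas6* and *Scarb1* below vehicle and *Pros1* above it. With spironolactone 0 of the 10 genes passed by edgeR, DESeq2, or limma-voom, where 0.0181% of all genes passed by edgeR, 263 of 16402 by DESeq2, and 0 of 16618 by limma-voom. A single gene, *Msr1*, had an unadjusted *P* under 0.05 (9.29% of all genes), and each gene overlapped vehicle (13.5% of all genes did not). The median log2 differences were -0.07 for prednisolone and 0.04 for spironolactone, beside -0.01 and 9.04e-05 over all genes. The drug comparisons against vehicle share the vehicle libraries.

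**Figure D2:**
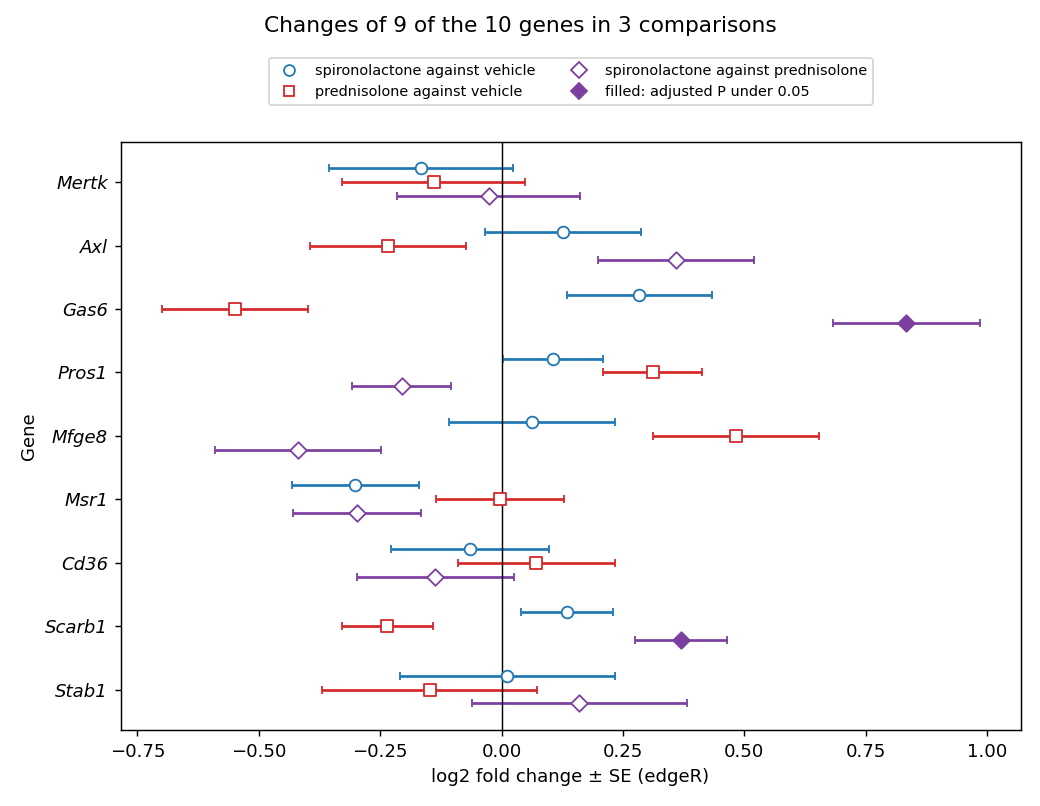
log2 fold change of 9 of the 10 genes ± SE from the edgeR fit, with *Marco* left out because its counts were too few, and 1 marker shape per comparison. Filled markers have an adjusted *P* under 0.05 and are found only for *Gas6* (0.83 ± 0.15) and *Scarb1* (0.37 ± 0.09), both in spironolactone against prednisolone.

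*Gas6*, the vitamin K-dependent ligand of all TAM receptors, was at 119, 83.9, and 69.9 CPM in vehicle replicates 1, 2, and 3. It was at 111, 114, and 107 CPM in spironolactone and at 63.5, 59.1, and 63.8 CPM in prednisolone. The drug groups were each tight and far apart, and vehicle spread from just above prednisolone to above spironolactone. Spironolactone exceeded prednisolone by 0.83 ± 0.15 on the log2 scale (SE; adjusted *P* = 0.0103, edgeR). This held in 9 of 9 alternative settings and in 8 of 9 fits with 1 library left out, and without prednisolone replicate 2 the adjusted *P* was 0.0555. Against vehicle, prednisolone was at -0.55 ± 0.15 (adjusted *P* = 0.0944, edgeR) and spironolactone at 0.28 ± 0.15 (adjusted *P* = 0.601, edgeR). The size against vehicle turned on single vehicle libraries. Without vehicle replicate 1 the prednisolone difference was -0.31 (adjusted *P* = 0.0741) and the spironolactone difference 0.52 (adjusted *P* = 0.0594), and without vehicle replicate 3 the prednisolone difference was -0.70 and passed (adjusted *P* = 0.0198).

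*Pros1*, which encodes protein S, an anticoagulant and the ligand of MERTK and TYRO3, differed little between groups. Its levels were 42.4, 45.0, and 39.1 CPM in vehicle, 40.0, 48.6, and 47.5 CPM in spironolactone, and 47.7, 52.7, and 56.5 CPM in prednisolone. All 3 prednisolone libraries lay above all vehicle libraries, by 0.31 ± 0.10 on the log2 scale (adjusted *P* = 0.161, edgeR). Spironolactone overlapped both other groups. The adjusted *P* was 0.825 against vehicle and 0.251 against prednisolone (edgeR).

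*Mfge8*, the bridge to the αv integrins, had its highest levels in prednisolone. It was at 202.5, 132, and 138 CPM in vehicle, 169, 142, and 183 CPM in spironolactone, and 196, 263, and 201 CPM in prednisolone. The prednisolone libraries were all above the spironolactone libraries, while vehicle replicate 1 reached into the prednisolone range. The log2 difference was 0.48 ± 0.17 for prednisolone against vehicle (adjusted *P* = 0.211, edgeR) and -0.42 ± 0.17 for spironolactone against prednisolone (adjusted *P* = 0.171, edgeR). Without vehicle replicate 1 both passed, at 0.71 (adjusted *P* = 0.0109) and -0.42 (adjusted *P* = 0.0383).

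Between the drug groups *Gas6* stood higher in spironolactone while *Mfge8* and *Pros1* had higher means in prednisolone without passing. The shares of the ligands are given as a description, were not tested, and depend on each other, since a lower *Gas6* level raises the other shares. Of the summed TPM of the 3 ligands, *Gas6* made up 26.6% to 30.5% in vehicle, 29.8% to 35.6% in spironolactone, and 14.5% to 19.2% in prednisolone. *Mfge8* was the larger part in each library, with 55.4% to 60.5%, 51.2% to 58.7%, and 67.3% to 74.3%. The prednisolone shares of both ligands lay outside the range of the other groups. The share of *Pros1* overlapped between groups, at 9.46% to 14.2%, 10.2% to 13.2%, and 11.2% to 14.2%.

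The log2 ratio of *Gas6* to *Pros1* counts, which does not depend on library scaling, was 1.49, 0.90, and 0.84 in vehicle, 1.46, 1.23, and 1.17 in spironolactone, and 0.41, 0.16, and 0.17 in prednisolone. Each prednisolone library was below each other library. The groups differed in an exact permutation test of *F* over the 280 ways to form 3 groups of 3 (*P* = 0.0143, where the smallest possible is 0.00357; adjusted over 2 ratios, *P* = 0.0286). The mean difference was -0.82 for prednisolone against vehicle and 1.04 for spironolactone against prednisolone, each at the smallest two-sided exact *P* that 3 against 3 allows, 0.1. It was 0.22 for spironolactone against vehicle (exact permutation *P* = 0.4). The size of this last difference depends on vehicle replicate 1, which lay above each spironolactone library, while the other vehicle libraries lay below each.

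**Figure D3:**
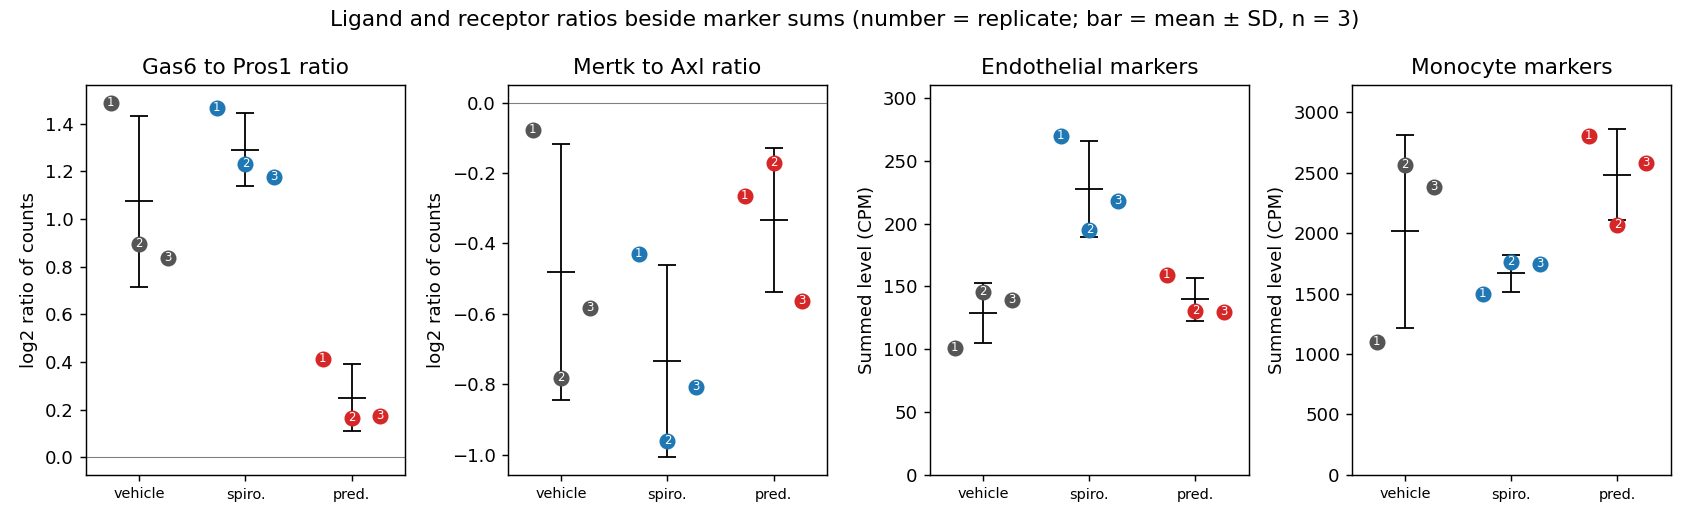
The left panels show the log2 ratio of counts of *Gas6* to *Pros1* and of *Mertk* to *Axl*, and the right panels the summed CPM of 10 endothelial and 6 monocyte marker genes, with 1 numbered dot per library and the mean ± SD of 3. The *Gas6* to *Pros1* ratio of prednisolone (0.16 to 0.41) lies below all others, the *Mertk* to *Axl* ratio overlaps between groups, the endothelial sums of spironolactone (195 to 270 CPM) lie above the rest, and the monocyte sum of vehicle replicate 1 is the lowest.

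The promoters of these 3 ligand genes are shown to set *Gas6*, which passed between the drugs, beside the other bridging ligands, which did not. Each runs from 250 bases before to 50 after the annotated start (RefSeq, GRCm38.p6), 5′ to 3′ on the gene's strand, and capitals mark GC boxes, GGGCGG or its complement CCGCCC. *Gas6* lies at chr8:13494486-13494785 on the minus strand, *Pros1* at chr16:62854057-62854356 on the plus strand, and *Mfge8* at chr7:79149011-79149310 on the minus strand.
Gas6: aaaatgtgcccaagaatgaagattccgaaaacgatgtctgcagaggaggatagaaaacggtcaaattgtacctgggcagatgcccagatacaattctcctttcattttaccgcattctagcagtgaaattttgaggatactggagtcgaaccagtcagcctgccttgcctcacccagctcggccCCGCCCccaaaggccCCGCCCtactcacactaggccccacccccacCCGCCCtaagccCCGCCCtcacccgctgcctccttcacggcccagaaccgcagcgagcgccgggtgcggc
Pros1: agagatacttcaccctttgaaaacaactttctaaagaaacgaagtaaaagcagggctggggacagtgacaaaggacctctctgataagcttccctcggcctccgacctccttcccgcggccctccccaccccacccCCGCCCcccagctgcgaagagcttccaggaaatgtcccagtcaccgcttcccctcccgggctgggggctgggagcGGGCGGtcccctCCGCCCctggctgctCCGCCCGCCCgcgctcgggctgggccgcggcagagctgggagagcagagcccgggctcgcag
Mfge8: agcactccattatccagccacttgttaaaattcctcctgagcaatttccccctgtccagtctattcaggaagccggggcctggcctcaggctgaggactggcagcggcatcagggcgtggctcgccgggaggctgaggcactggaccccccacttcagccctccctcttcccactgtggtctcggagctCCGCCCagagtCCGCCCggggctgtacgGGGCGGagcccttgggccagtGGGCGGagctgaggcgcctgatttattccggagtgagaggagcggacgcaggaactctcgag

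These windows held 4, 5, and 4 GC boxes, of which 2 in *Pros1* overlap, and their GC content was 58.3%, 66.7%, and 64.3%. A GC box is found in 35.7% of 32851 promoters of this length. Promoters were matched for 8 of the 10 genes, and *Mertk* held 4 GC boxes, *Axl* and *Cd36* 2 each, and *Marco* and *Stab1* 0. None of the 8 windows held, on either strand, a palindromic glucocorticoid response element (AGAACA and TGTTCT with any 3 bases between them, in 0.00913% of all promoters), its left part AGAACA alone (19%), the LXR element (AGGTCA repeated with any 4 bases between, 0.0152%), or the AP-1 site TGANTCA (7.81%). AGAACA lies within the palindrome, so these searches overlap.

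The receptors for these ligands showed no difference past the threshold in the edgeR fit. *Mertk*, the TAM receptor characteristic of efferocytic macrophages, was at 255, 163, and 142 CPM in vehicle, 186, 167, and 145 CPM in spironolactone, and 153, 172, and 183 CPM in prednisolone. Apart from vehicle replicate 1 all libraries lay between 142 and 186 CPM. The log2 difference from vehicle was -0.14 ± 0.19 for prednisolone and -0.17 ± 0.19 for spironolactone, and without vehicle replicate 1 these values were 0.15 and 0.12. Spironolactone and prednisolone differed by -0.03 ± 0.19 (adjusted *P* = 0.959, edgeR).

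*Axl*, the TAM receptor that signals through GAS6, was at 269, 281, and 213 CPM in vehicle, 251, 326, and 255 CPM in spironolactone, and 184, 194, and 270.5 CPM in prednisolone. Prednisolone held the lowest libraries, but its replicate 3 reached the level of the other groups. The log2 difference between spironolactone and prednisolone was 0.36 ± 0.16 (adjusted *P* = 0.21, edgeR), and prednisolone stood at -0.23 ± 0.16 against vehicle (adjusted *P* = 0.569, edgeR). The difference between the drugs passed in 1 of 9 alternative settings, with all genes that had a count (adjusted *P* = 0.0353, edgeR). The log2 ratio of *Mertk* to *Axl* counts was -0.08, -0.78, and -0.58 in vehicle, -0.43, -0.96, and -0.81 in spironolactone, and -0.27, -0.17, and -0.56 in prednisolone. The groups overlapped, and the exact permutation *P* was 0.318, also when adjusted over 2 ratios. *Tyro3*, the remaining TAM receptor, was scarcely detected, with group means of 0.313 to 0.675 CPM. It was named here for its family after its values were seen.

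Among the scavenger receptors, *Scarb1*, the high-density lipoprotein receptor that also binds phosphatidylserine, was the gene that passed. It was at 143.5, 152, and 127 CPM in vehicle, 149, 165, and 149.8 CPM in spironolactone, and 126, 111, and 122 CPM in prednisolone. All prednisolone libraries lay below all spironolactone libraries by a wide margin, and below vehicle by a margin of less than 1 CPM. Spironolactone exceeded prednisolone by 0.37 ± 0.09 on the log2 scale (adjusted *P* = 0.0384, edgeR). The call held in 8 of 9 alternative settings, with scaling by library totals giving an adjusted *P* of 0.0545. It was lost when any 1 library of either drug was left out, with adjusted *P* from 0.0539 without spironolactone replicate 1 to 0.163 without prednisolone replicate 2. Against vehicle the log2 difference was -0.23 ± 0.09 for prednisolone (adjusted *P* = 0.265, edgeR) and 0.14 ± 0.09 for spironolactone (adjusted *P* = 0.717, edgeR).

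*Msr1*, which takes up modified low-density lipoprotein and apoptotic cells, was at 316, 458, and 482 CPM in vehicle, 339.6, 341, and 339.1 CPM in spironolactone, and 448, 398, and 408 CPM in prednisolone. The spironolactone libraries were nearly equal and below all prednisolone libraries, and vehicle held both the lowest and the highest library. The log2 difference was -0.30 ± 0.13 for spironolactone against vehicle (adjusted *P* = 0.503, edgeR) and -0.30 ± 0.13 against prednisolone (adjusted *P* = 0.197, edgeR). Without vehicle replicate 1 the former was -0.47 (adjusted *P* = 0.0668), and the latter kept its size of -0.30 and passed (adjusted *P* = 0.0261). A fit of the drug groups alone also called the latter (adjusted *P* = 0.0368). For prednisolone against vehicle the difference was near 0 and changed sign between settings, from -0.01 to 0.03. Without vehicle replicate 1 it was -0.17 (adjusted *P* = 0.316, edgeR).

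The most abundant scavenger receptors did not separate the groups. *Cd36* was at 1516, 1066, and 1332 CPM in vehicle, 1540.5, 1044, and 1158 CPM in spironolactone, and 1522, 1419, and 1172 CPM in prednisolone, with the replicates of each group spread over the same range. Without vehicle replicate 1 its log2 difference from vehicle went from 0.07 to 0.19 for prednisolone and from -0.06 to 0.06 for spironolactone (adjusted *P* = 0.604 and 0.944, edgeR). *Stab1* was at 1602, 855, and 846 CPM in vehicle, 1224, 1116, and 991 CPM in spironolactone, and 1108, 917, and 956 CPM in prednisolone. Vehicle replicate 1 held the highest *Stab1* value and the other vehicle libraries the lowest. The adjusted *P* of these genes was between 0.68 and 0.994 in the 3 comparisons (edgeR). Without vehicle replicate 1 the log2 difference of *Stab1* from vehicle went from -0.15 to 0.23 for prednisolone and from 0.01 to 0.38 for spironolactone (adjusted *P* = 0.287 and 0.199). *Marco* had counts of 5, 7, and 14 in vehicle, 1, 10, and 1 in spironolactone, and 10, 20, and 16 in prednisolone, and no difference passed (adjusted *P* = 0.205 to 0.763, edgeR).

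Transcripts of other cell types moved with the drug contrast in which *Gas6* and *Scarb1* passed. Endothelial cells and fibroblasts are known sources of *Gas6*, and endothelial cells also express *Scarb1* and *Cd36*. The sort for CD45+CD11b+ cells is meant to leave both cell types out. The 10 endothelial markers summed to 101 to 145 CPM in vehicle, 195 to 270 CPM in spironolactone, and 130 to 159 CPM in prednisolone. All 10 were tested and none was at 0 throughout a group. In spironolactone against prednisolone 5 of the 10 passed, all higher, beside 5.17% of all genes. The log2 difference was 1.09 for *Pecam1* (adjusted *P* = 0.00729) and 1.13 for *Cdh5* (adjusted *P* = 0.0178, edgeR). Against vehicle 0 of the 10 passed for either drug (edgeR). An unadjusted *P* under 0.05 was found for 9 with spironolactone, beside 9.29% of all genes, and for 0 with prednisolone, beside 14.2%. The mural sums were 31.4 to 79.1, 85.8 to 114, and 47.4 to 52.2 CPM in vehicle, spironolactone, and prednisolone, with 1 of 5 markers at 0 throughout vehicle and 1 throughout prednisolone, and 1 of the 4 tested passed in spironolactone against prednisolone. The skeletal muscle sums were 173 to 264, 319 to 531, and 271 to 403 CPM, and 1 of 7 tested markers passed in that comparison. The fibro-adipogenic sums, at 637 to 904, 838 to 1221, and 800.5 to 895 CPM, overlapped. In spironolactone against prednisolone 0 of 9 markers passed, with 4 at an unadjusted *P* under 0.05, beside 22.5% of all genes (edgeR). The 5 erythroid markers summed to 70.2 to 135, 186 to 305, and 37.1 to 79.7 CPM, and the 7 lymphocyte markers to 3.28 to 5.86, 7.59 to 11.9, and 1.41 to 2.97 CPM, with 4 and 3 passing in spironolactone against prednisolone, all higher. Vehicle replicate 1 had the highest *Gas6* level of all libraries, 119 CPM. It also had the lowest endothelial (101 CPM), mural (31.4 CPM), and fibro-adipogenic (637 CPM) sums. In prednisolone against vehicle, where the *Gas6* estimate was -0.55, 8 endothelial markers had a higher and 2 a lower estimate. The part of these transcripts in the *Gas6* and *Scarb1* differences was not tested.

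Transcripts of myeloid cell types were compared in the same way. Over all genes 5.17% passed in spironolactone against prednisolone, and 22.5% had an unadjusted *P* under 0.05 (edgeR). In prednisolone against vehicle these shares were 1.76% and 14.2%. The 8 macrophage markers gave overlapping sums, at 3985 to 4509 CPM in vehicle, 4059 to 4920 CPM in spironolactone, and 3950 to 4607 CPM in prednisolone. In spironolactone against prednisolone 2 of the 8 passed, both lower, *Cd163* and *Lyve1* (log2 difference -1.60, adjusted *P* = 0.0338, edgeR). *Itgam* of the sort was lower by the same test (-0.43, adjusted *P* = 0.0353). Of the 8 macrophage markers 5 had an unadjusted *P* under 0.05, and 3 of the 8 had higher estimates in spironolactone, *C1qa* at 0.48, *Fcgr1* at 0.47, and *Folr2* at 0.22. The monocyte sums were 1494 to 1761 CPM in spironolactone and 2065 to 2805 CPM in prednisolone, without overlap, but 0 of 6 markers passed (edgeR, 2 at an unadjusted *P* under 0.05) and 3 had a higher and 3 a lower estimate in spironolactone. *Chil3* and *Vcan* were at -1.40 and -1.20 on the log2 scale, and *Ly6c2* and *Plac8* at 0.72 and 0.88. The 7 neutrophil markers summed to 636, 962, and 2829 CPM in vehicle replicates 1, 2, and 3, so that replicate 3 stood apart in them, to 993 to 2063 CPM in spironolactone, and to 761 to 970.0 CPM in prednisolone, and 0 of 7 passed (edgeR, 1 at an unadjusted *P* under 0.05). Against vehicle, prednisolone gave calls in the eosinophil and mast cell list, where 2 of 5 tested markers passed, both lower (*Siglecf* at -0.65 and *Ccr3* at -1.20 on the log2 scale, edgeR), while its mast cell markers *Cpa3* and *Kit* were at 0.66 and 0.58 and did not pass. The sums of this list were 41.4 to 71.1 CPM in vehicle and 23.7 to 30.2 CPM in prednisolone. The 6 dendritic cell markers summed to 61.3 to 75.7 CPM in vehicle, 72.1 to 127 CPM in spironolactone, and 83.5 to 107 CPM in prednisolone, and 0 of 6 passed in prednisolone against vehicle (edgeR, 3 at an unadjusted *P* under 0.05). *Siglecf* and *Ccr3* were higher in spironolactone than in prednisolone (0.65, adjusted *P* = 0.0217, and 1.54, adjusted *P* = 0.00205, edgeR). So was *Fabp4* of the adipocyte list (1.12, adjusted *P* = 0.00782, edgeR), 1 of the 2 tested markers of that list. The other, *Lpl*, was at 0.08 and did not pass. *Adipoq*, *Plin1*, and *Cidec* of that list were near absent, with group means of 0 to 0.114 CPM, and were not tested. The part of these differences in the results was not tested either.

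Around these genes, a list of 64 other genes of engulfment and scavenging was examined, of which 62 were tested, leaving out *Havcr1* and *Adgrb1* with at most 20 and 12 counts in a library. In spironolactone against prednisolone 9 of the 62 passed, 7 higher and 2 lower, beside 5.17% of all genes, and 27 had no overlap between groups, beside 30.3%. In prednisolone against vehicle 2 passed, both lower, beside 1.76% of all genes. In spironolactone against vehicle 0 passed by edgeR, beside 0.0181%, with 11 at an unadjusted *P* under 0.05, beside 9.29%. The median log2 difference of the list was 0.01, -0.05, and 0.01 in the 3 comparisons.

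Among 8 other opsonins and bridging proteins 2 passed between the drugs. *C1qb*, a chain of the complement component that tags dying cells, was at 1827, 1856, and 1499 CPM in vehicle, 1885, 2282, and 2307 CPM in spironolactone, and 1226, 1385, and 1606 CPM in prednisolone. Spironolactone was above all libraries of both other groups, and it exceeded prednisolone by 0.62 ± 0.13 on the log2 scale (adjusted *P* = 0.0154, edgeR). Its partner chain *C1qc* was at 1107, 1302, and 1310 CPM in spironolactone and 765, 847, and 994 CPM in prednisolone, a difference of 0.51 ± 0.13 (adjusted *P* = 0.0408). *Thbs1*, a bridge from apoptotic cells to CD36, was at 2212, 1997, and 2272 CPM in vehicle and at 1264, 1269, and 1118 CPM in spironolactone, with no overlap. In prednisolone it was at 1994, 1490, and 1422 CPM, below each vehicle library, narrowly in replicate 1, and above each spironolactone library. Spironolactone stood at -0.83 ± 0.13 against vehicle (adjusted *P* = 0.0542) and -0.43 ± 0.13 against prednisolone (adjusted *P* = 0.0677), and prednisolone at -0.40 ± 0.13 against vehicle (adjusted *P* = 0.141, edgeR). The difference of spironolactone from vehicle did not pass here but passed in 5 of 9 alternative settings and in 4 of 9 fits with 1 library left out, among them that without vehicle replicate 1 (adjusted *P* = 0.0371). The study's own DESeq2 analysis of these libraries reported *Thbs1* as lower with both drugs.

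Among other engulfment receptors 3 of 10 passed in spironolactone against prednisolone. *Cd300lf*, a phosphatidylserine-binding receptor, was at 119, 128, and 144 CPM in vehicle, 117, 127, and 135 CPM in spironolactone, and 95.3, 70.2, and 84.8 CPM in prednisolone. It fell with prednisolone against vehicle by 0.65 ± 0.12 on the log2 scale (adjusted *P* = 0.0128), and spironolactone exceeded prednisolone by 0.60 ± 0.12 (adjusted *P* = 0.0105). The former passed in 7 of 9 fits with 1 library left out, and its adjusted *P* was 0.0922 without prednisolone replicate 2 and 0.0522 without prednisolone replicate 3. *Trem2*, a lipid-sensing receptor of macrophages, was at 567, 543, and 567 CPM in spironolactone and at 396, 462, and 467 CPM in prednisolone (0.34 ± 0.09, adjusted *P* = 0.0483). *Ager*, a receptor for glycated proteins, passed at a low level (2.05 to 4.81 CPM over all libraries; 0.84 ± 0.22, adjusted *P* = 0.0436, edgeR).

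Among 12 other scavenger receptors 3 passed in spironolactone against prednisolone, in both directions. *Cd5l*, a secreted scavenger protein of tissue macrophages induced by LXR, was at 31.6, 22.6, and 26.4 CPM in vehicle, 39.9, 26.4, and 36.1 CPM in spironolactone, and 16.6, 9.72, and 14.3 CPM in prednisolone. It was 2.52-fold higher in spironolactone than in prednisolone (adjusted *P* = 0.00587) and lower with prednisolone than with vehicle by 0.99 ± 0.21 on the log2 scale (adjusted *P* = 0.0357, edgeR). The latter passed in 3 of 9 fits with 1 library left out, and its adjusted *P* was 0.0793 without vehicle replicate 1. *Cd163*, the hemoglobin-haptoglobin receptor, went the other way, at 19.8, 13.2, and 10.3 CPM in vehicle, 11.5, 17.6, and 12.3 CPM in spironolactone, and 22.4, 29.9, and 26.2 CPM in prednisolone (-0.92 ± 0.23 between the drugs, adjusted *P* = 0.0448, edgeR). *Colec12*, a scavenger receptor with a C-type lectin domain, was also lower in spironolactone than in prednisolone (-0.39 ± 0.10, adjusted *P* = 0.0407, edgeR). *Olr1*, the receptor for oxidized low-density lipoprotein, was at 16.1 to 25.6 CPM in spironolactone and 27.1 to 32.2 CPM in vehicle (-0.60 ± 0.17, adjusted *P* = 0.215, edgeR). This difference passed in 2 of 9 alternative settings and in 1 of 9 fits with 1 library left out.

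**Figure D4:**
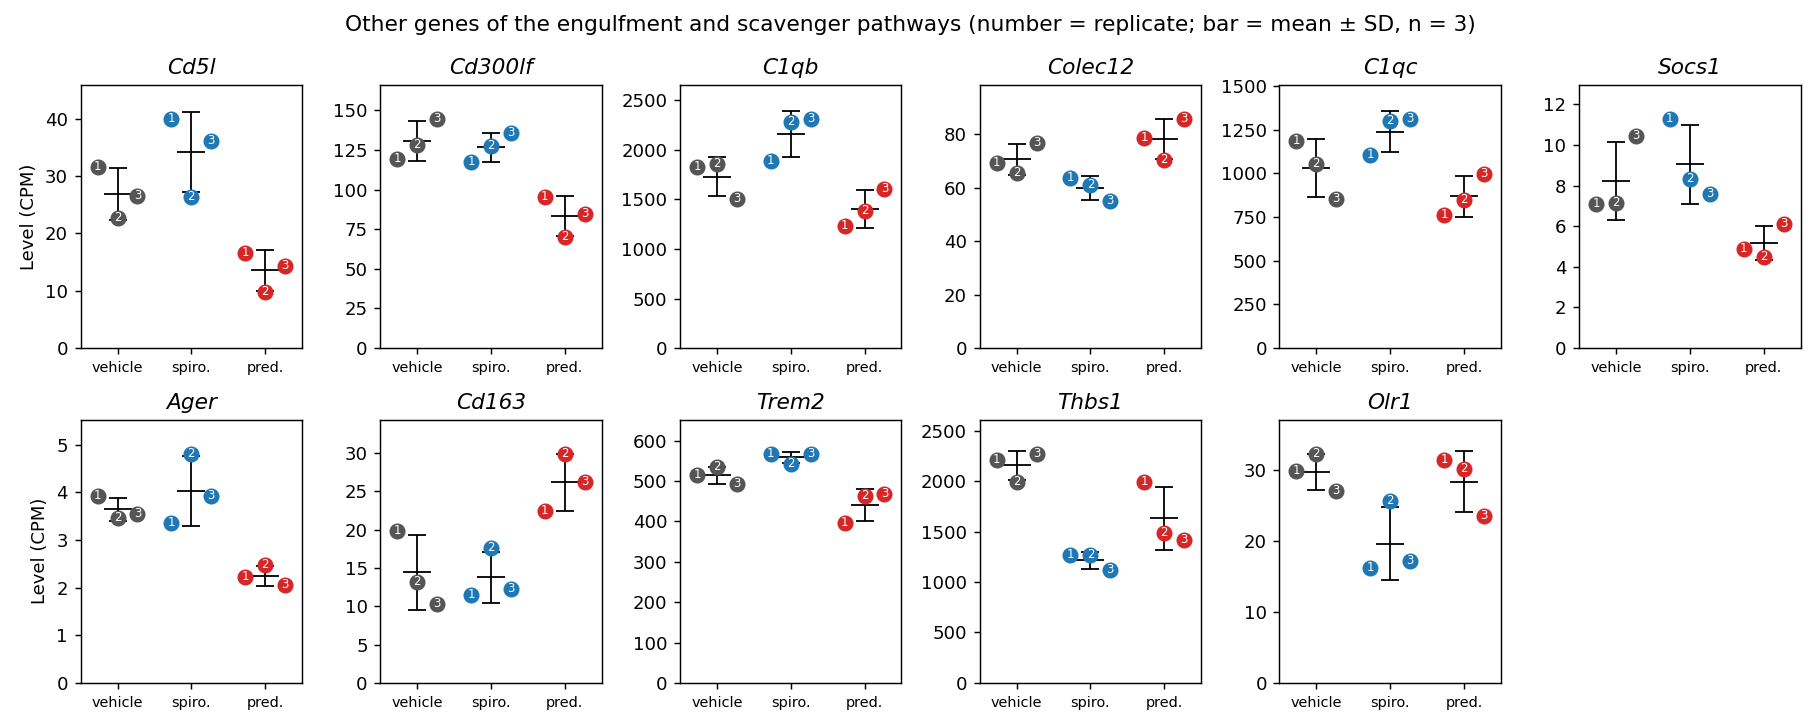
Level in CPM of the 11 other engulfment and scavenger genes named by the rule, with 1 numbered dot per library and the mean ± SD of 3 libraries. In *Cd5l* and *Cd300lf* the prednisolone dots (9.72 to 16.6 and 70.2 to 95.3 CPM) lie below all others, while in *Cd163* they lie above all others (22.4 to 29.9 CPM).

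The remaining groups held a single call. *Socs1*, a feedback inhibitor of cytokine signaling that TAM receptors induce, was at 7.60 to 11.3 CPM in spironolactone and 4.49 to 6.09 CPM in prednisolone (0.81 ± 0.21, adjusted *P* = 0.0411, edgeR). In that comparison 0 of 5 genes of the vitamin K cycle and receptor shedding and 0 of 9 of the integrins and engulfment machinery passed. By edgeR 0 of 6 of the find-me and do-not-eat-me signals and 0 of 10 of the nuclear receptors and cargo handling passed. At an unadjusted *P* under 0.05 there were 2, 2, 1, and 4 in these groups, beside 22.5% of all genes. Of the 9 genes called between the drugs, *Trem2* was called in 5 of 9 alternative settings, *Ager* in 6, *C1qc* and *Socs1* in 7, *Cd163* in 8, and the others in 9. *Cd5l* alone passed in all fits with 1 library left out, and *Trem2* passed in 1 of 9, *Ager* in 2, *Cd163* and *Socs1* in 3 each, *C1qc* and *Colec12* in 4 each, *C1qb* in 5, and *Cd300lf* in 7.

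On GRCm39 (GENCODE) the ligand genes lie at chr8:13515371-13544824 (*Gas6*, minus strand), chr16:62674275-62749710 (*Pros1*, plus), and chr7:78783515-78798825 (*Mfge8*, minus), and the TAM receptors at chr2:128540729-128645080 (*Mertk*, plus) and chr7:25456535-25488329 (*Axl*, minus). The scavenger receptors lie at chr8:40034726-40095714 (*Msr1*), chr1:120402267-120432753 (*Marco*), chr5:17986432-18094067 (*Cd36*), chr5:125353547-125418176 (*Scarb1*), and chr14:30860970-30890598 (*Stab1*), all on the minus strand. Some exon bases are shared with genes on the opposite strand, and without a stated strand setting their reads cannot be told apart. *Gas6* shares 154 of 5500 bases with *Tmem255b*, which was at 0.841 to 3.67 CPM. *Mfge8* shares 420 of 4762, *Scarb1* 391 of 10346, and *Stab1* 565 of 10288 bases, the last with genes that include *Nt5dc2* at 68.4 to 96.0 CPM.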

How the data were processed

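RNA-Seq was analysed from 9 libraries. The authors aligned reads to mm39 with HISAT2 2.2.1 and counted them per gene with HTSeq 0.11.3, per the submitters' processing notes, and deposited raw counts; the strand setting and annotation release are not given in the sources used here. The deposited comparison tables hold the authors' own DESeq2 (1.32.0) fold changes and P values and were not used. Lines naming no gene (17.2% to 21.8% of counts) were left out. Counts were fitted in edgeR 4.0.16 (R 4.3.3) with TMM factors, filterByExpr (minimum count 10, minimum total 15), and robust quasi-likelihood F tests, all 9 libraries in 1 fit, with Benjamini-Hochberg adjustment over the 16618 genes tested and a threshold of 0.05. SE is the absolute log2 difference over the square root of F. CPM used TMM-scaled totals, and TPM used GENCODE exon lengths, which covered at least 91.0% of counts in each library. Ratios used a prior count of 2 and two-sided exact permutation tests. Libraries of a group differed beyond counting noise (chi-square per degree of freedom 18 to 57.8). The scripts were tested on simulated data. Alternatives were DESeq2 1.42.0, limma-voom (limma 3.58.1), other scaling, filters, and priors, a fit of only the groups compared, a replicate block, and leaving out each library.

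The genes and lists were chosen with earlier results of these data known, although the rule for the 10 genes uses no measured value. Named were all 10 genes, each gene of the pathway list past the threshold in any comparison, and the 2 with the smallest P in each; markers were given by list where their sums or calls moved beside these genes, and *Tyro3* was added.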

Additional observations from a re-analysis of the deposited data

How the results depend on the processing

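Of the 10 genes, the number called in spironolactone against prednisolone was 2 in the edgeR fit, 1 with library totals only (*Gas6*), 4 with all genes that had a count (adding *Axl* and *Mfge8*), 3 in a fit of only the groups compared, and 0 (without prednisolone replicate 2) to 4 (without vehicle replicate 1) with 1 library left out. In prednisolone against vehicle it was 0, 1 with DESeq2 (*Gas6*), 2 with all genes that had a count (*Gas6* and *Mfge8*), and 0 to 1 with 1 library left out (*Mfge8* without vehicle replicate 1, *Gas6* without vehicle replicate 3). In spironolactone against vehicle it was 0 in each setting. Of the 28 member comparisons not called, 5 were called in at least 1 alternative and 4 in at least 1 fit with a library left out. DESeq2 gave *Marco* no adjusted P, and it did not pass the filter of 10 counts in every library.

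Over all genes, 293 were called in prednisolone against vehicle, 684 with DESeq2, 1019 with all genes that had a count, and 69 (without prednisolone replicate 2) to 826 (without vehicle replicate 1) with 1 library left out. Spironolactone against vehicle gave 3, 263 with DESeq2, 528 with all genes that had a count, 0 with limma-voom or robust=FALSE (1587 and 1553 at an unadjusted P under 0.05), and 0 to 34 (without spironolactone replicate 2). Spironolactone against prednisolone gave 859, 1594 with DESeq2, 1598 with only the groups compared, 1940 with all genes that had a count, and 232 (without prednisolone replicate 2) to 1898 (without vehicle replicate 1). The cause was not tested.

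Small differences changed sign. In prednisolone against vehicle *Msr1* (-0.00295 on the log2 scale) was 0.0002086 with DESeq2, 0.01932 with limma-voom, 0.02564 with library totals, 0.01393 with all genes that had a count, and 0.01101 with the replicate block, and in spironolactone against vehicle *Stab1* (0.01) was -0.005058 with library totals. With 1 library left out, prednisolone against vehicle ranged from -0.30 to 0.15 for *Mertk*, -0.17 to 0.11 for *Msr1*, -0.054 to 0.19 for *Cd36*, and -0.30 to 0.23 for *Stab1*. Spironolactone against vehicle ranged from -0.33 to 0.12 for *Mertk*, -0.0066 to 0.20 for *Axl*, -0.048 to 0.28 for *Mfge8*, -0.24 to 0.056 for *Cd36*, and -0.15 to 0.38 for *Stab1*, and spironolactone against prednisolone from -0.12 to 0.060 for *Mertk*. The exact permutation *P* of the *Gas6* to *Pros1* ratio was 0.00357 to 0.0321 and that of *Mertk* to *Axl* 0.171 to 0.568.

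The numbering of replicates was not used as a pairing, since correlations between libraries of the same number were -0.038 to 0.151 over 9 pairs and 4 of 9 libraries correlated best with their own number. With the replicate block, 336, 8, and 1082 genes were called in prednisolone against vehicle, spironolactone against vehicle, and spironolactone against prednisolone, with 0, 0, and 2 of the 10 genes. *Marco* had 1 to 20 counts in a library, and each group has 3 pools.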
